A study of Rattus norvegicus with 60 samples.

Results

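The lungs described here came from rats that breathed filtered air and no nanotubes, compared among the 5 exposure runs in which they served as controls. They were the air libraries of the count table that the labels do not mark as outliers, 27 of the 60 libraries in the series. The study exposed male Fischer 344 rats about 3 months old to multi-walled carbon nanotubes (MWCNT) or to air in whole-body chambers, 6 h a day for 3 days, and took a piece of lung 1 day after the last exposure. Each run had its own cumulative nanotube dose and its own 6 air rats, and is named here by that dose: 011 (11.25 mg/m3), 022 (22.5 mg/m3), 045 (45 mg/m3), 090 (90 mg/m3) and 180 (180 mg/m3). The air groups held 6 libraries each in air_011, air_022, air_090 and air_180 and 3 in air_045, where the labels mark replicates 3, 5 and 6 as outliers. All air rats shared strain, sex, age, housing at 3 rats a cage and a dose of 0, so the groups differed only by run as far as the labels say. The labels give no date of exposure, dissection or sequencing, so whatever changed along with the run cannot be told apart from it. The replicates were separate rats.

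A piece of lung mixes alveolar epithelium, capillaries, airway, connective tissue, resident macrophages and blood, so a gene's level follows both the make-up of the piece and the activity of its cells. Type 2 alveolar cells make surfactant proteins, club cells line the small airways, and fibroblasts lay down collagen and elastin. In such bulk tissue, fewer cells of a type and less RNA per cell cannot be told apart.

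Total counts of the 27 libraries lay between 9.495 and 16.18 M, with a median of 11.2 M. The lung markers were high in every library: Sftpc, a surfactant protein, had 7887 to 14816 CPM (counts scaled to a library total of 1e+06), and Scgb1a1, the club cell secretory protein, had 4786 to 10110 CPM. Markers of neighbouring tissue were low but varied from rat to rat, Myh6 (heart muscle myosin) from 0.0903 to 141 CPM and Alb (albumin, made by liver) from 1.69 to 147.8 CPM, while Nppa, an atrial hormone gene, was at 0 in all 27. Replicate 2 of air_022 stood apart from all other air lungs, with a score of -55.1 on the first principal component against -19.3 to 22.5 in the other 26, and replicate 5 of air_180 held the most albumin. Counts of called genes and several gene lists are also given without air_022 replicate 2, and some without both libraries. The pairs of runs, the span measures, the comparison with nanotube lungs and most values of single genes include both.

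Which genes differed among lungs that never met nanotubes was asked with edgeR's quasi-likelihood test, and most of the genes called were called in run 011. Of 15637 genes tested, 910 (5.82%) differed among the 5 air groups at a Benjamini-Hochberg adjusted p under 0.05, and 834 of those were also called when air_011 was set against the mean of the other 4 air groups. In that comparison 1556 genes (9.95%) were higher and 1384 (8.85%) lower in air_011. Such log2 differences are the run minus the mean of the other 4 groups throughout. The shifts were small: the median log2 difference was 0.23 among the higher genes and -0.20 among the lower, and 41 of the 2940 called genes differed by more than 2-fold.

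Few genes were called in the other 4 runs. Each was set against the mean of the other 4 air groups. In air_022, 0 genes (0%) were higher and 4 (0.0256%) lower. In air_045, 2 (0.0128%) were higher and 1 (0.0064%) lower. In air_090, 9 (0.0576%) were higher and 1 (0.0064%) lower, and in air_180, 16 (0.102%) were higher and 2 (0.0128%) lower. For air_022, where edgeR called no gene higher, 1379 genes had an unadjusted p under 0.05 in either direction, and DESeq2 called 11 genes and limma voom 2.

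Compared in pairs, air_011 differed from air_180 in 1635 genes (10.5%), from air_022 in 1990 (12.7%), from air_090 in 582 (3.72%) and from air_045 in 368 (2.35%). No other pair passed 11 genes. The count was 11 (0.0703%) for air_180 against air_022, 8 (0.0512%) for air_090 against air_022, 7 (0.0448%) for air_180 against air_045, 7 (0.0448%) for air_090 against air_045 and 2 (0.0128%) for air_180 against air_090. For air_045 against air_022 it was 0 (0%) by edgeR, the tool run on pairs, with 647 genes at an unadjusted p under 0.05. One of the 2 genes that separated air_180 from air_090 was Col1a1, a chain of fibrillar collagen.

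These counts leaned on single libraries. Without air_022 replicate 2, 2371 genes differed among the 5 groups, 3701 in air_011 and 396 in air_180 (288 higher and 108 lower). Without air_011 replicates 1, 2, 3 or 4, the any-difference count was 424, 331, 391 or 507, and without replicate 2 the air_011 count was 1638. The air_180 count was 7, 10, 7, 9 and 6 without air_045 replicate 2 and air_180 replicates 1, 3, 5 and 6, each left out in turn. With the 3 labelled outliers of air_045 put back, 2504 genes were called in air_045 and 175 in air_011. The median spread between rats of a run, as the SD of log2 CPM, was 0.12 in air_011, 0.19 in air_022, 0.11 in air_045, 0.13 in air_090 and 0.15 in air_180, and 0.12 in air_022 without replicate 2.

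**Figure D1:**
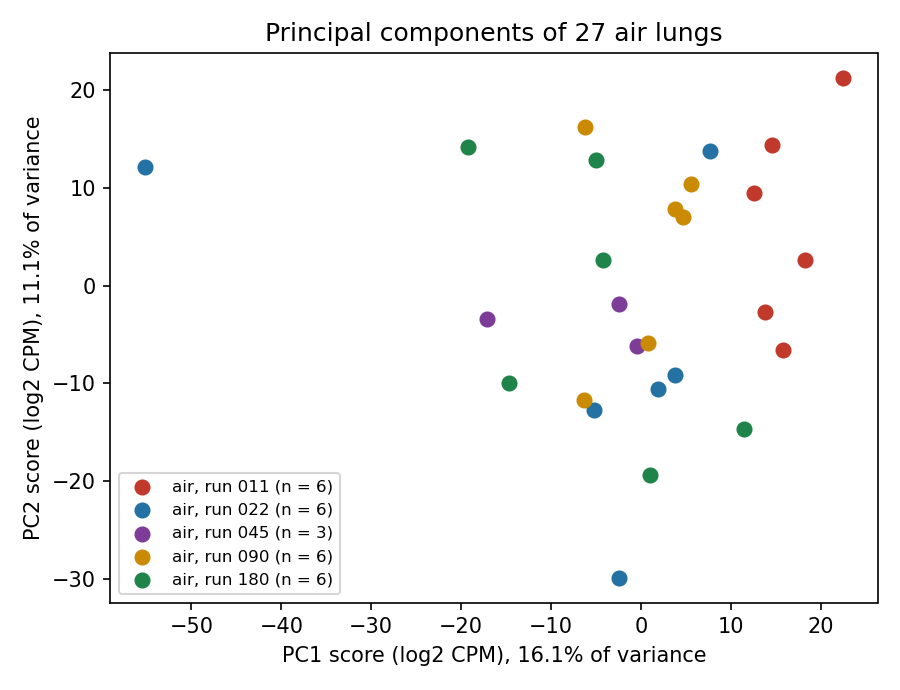
Scores of the 27 air lungs on the first 2 principal components of log2 CPM, colored by run. The 6 lungs of run 011 lie at 12.6 to 22.5 on the first component, above the other 21, and 1 lung of run 022 lies at -55.1.

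On the first principal component, which held 16.1% of the variance, the 6 air_011 lungs scored 12.6 to 22.5, and the other 21 scored -55.1 to 11.5. The ranges did not overlap. The closest of the others was replicate 5 of air_180. Over genes, the median share of variance that lay between runs was 21.4%.

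The genes with the clearest differences rose in air_011. Of the 12 named genes with the smallest p for any difference, 11 were higher in air_011, by 0.26 to 0.54 on the log2 scale, and in all 11 the 6 air_011 values lay above all 21 others. These genes were chosen for their small p, so their separation is a description.

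Sppl2a, an intramembrane protease of endosomes and lysosomes, had 91.1, 95.9 and 97.9 CPM (lowest, median and highest) in air_011. In the other 21 air lungs it had 59.6, 69.5 and 77.5 CPM, so the lowest air_011 lung was above the highest of the rest. The log2 difference was 0.44 ± 0.03 (SE; edgeR adjusted p = 2.38e-09). It was also called lower in air_180 and in air_090, each by 0.20 on the log2 scale against a mean that includes air_011.

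Ddx6, an RNA helicase of cytoplasmic P-bodies, had 220, 238 and 252 CPM in air_011. The other 21 lungs had 145.4, 163 and 179 CPM. The groups did not overlap, and the log2 difference was 0.54 ± 0.04 (SE; edgeR adjusted p = 1.57e-09).

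The remaining 9 shared the pattern and came from varied functions. Vcl (vinculin, of cell adhesions) had 378 to 398 CPM in air_011 and 292 to 330 CPM in the other 21 lungs. Crebbp, a histone acetyltransferase, had 104 to 125 CPM in air_011 and 70.0 to 92.9 CPM in the others. Ppp1r15b, which guides dephosphorylation of the translation factor eIF2alpha, had 90.6 to 105.5 CPM in air_011 and 63.7 to 77.9 CPM in the others. Plec (plectin, a cytoskeletal linker), Dpysl2 (a microtubule-associated protein), Nfix (a transcription factor), Tm9sf4 (a multispanning membrane protein), Fam20b (a xylose kinase of proteoglycan synthesis) and C2cd2 completed the set, with log2 differences of 0.29, 0.30, 0.39, 0.26, 0.27 and 0.32.

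Srebf2, the main transcription factor for sterol synthesis, separated in the same way. It had 223, 242 and 244 CPM (lowest, median and highest) in air_011 and 147.8, 187 and 214 CPM in the other 21 lungs, a log2 difference of 0.34 ± 0.04 (SE; edgeR adjusted p = 1.91e-05). In the list of sterol and fatty acid synthesis genes, 2 of 23 were higher and 1 lower in air_011, beside 9.95% and 8.85% of all genes. Acaca, which makes malonyl-CoA, was the other higher one and Mvk the lower one. Acaca lost the any-difference call without any 1 of 5 air_011 libraries, at edgeR adjusted p up to 0.118.

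**Figure D2:**
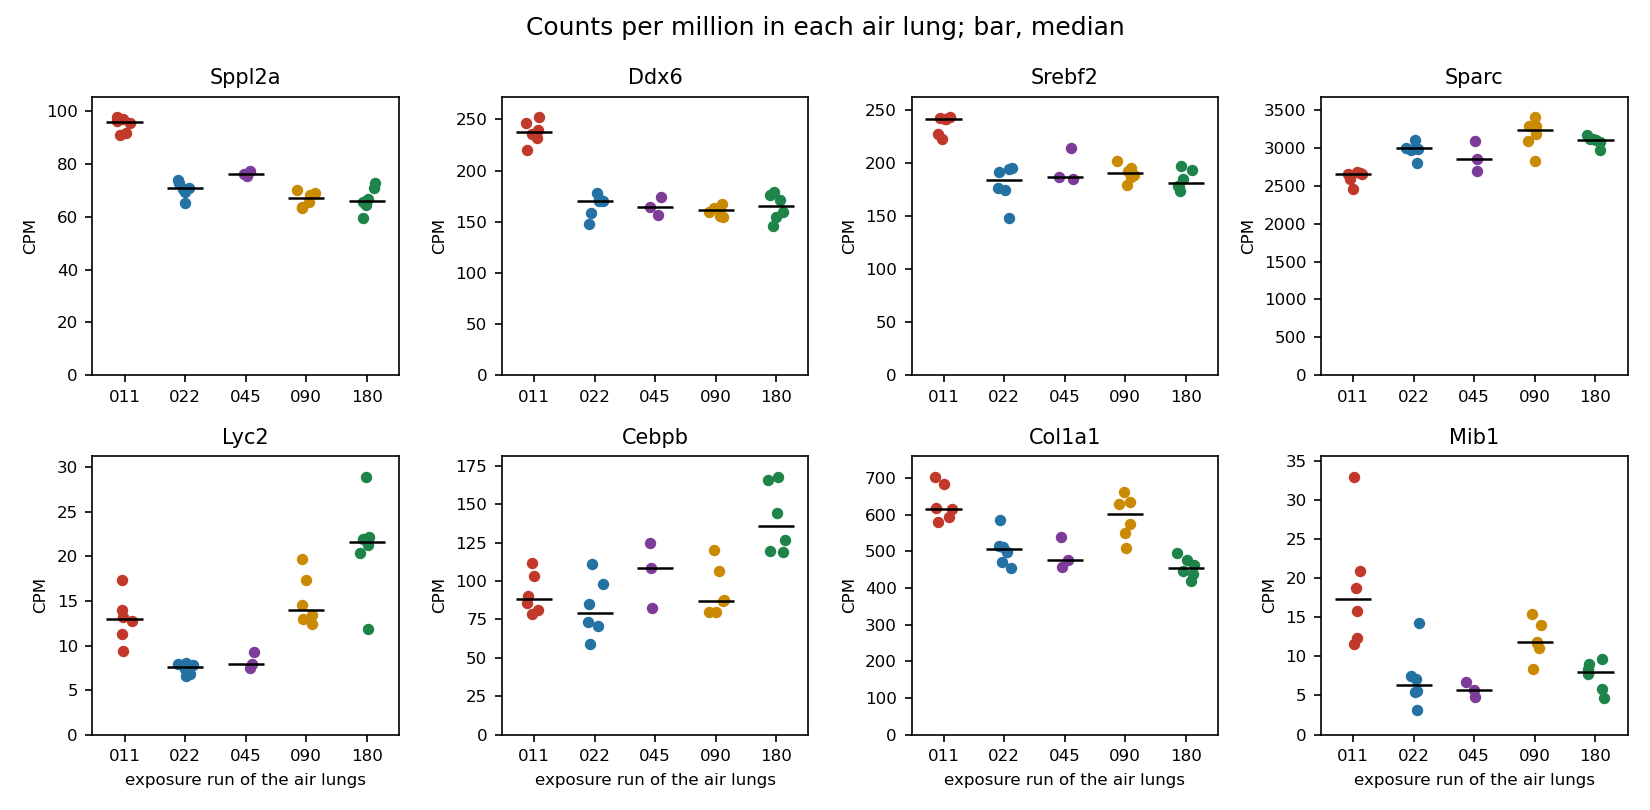
CPM of 8 genes in each air lung (points) with the median of each run (bar), on linear axes from 0. Sppl2a, Ddx6 and Srebf2 are higher and Sparc is lower in all 6 lungs of run 011 than in any other air lung, Lyc2 is lowest in runs 022 and 045, and 1 lung of run 011 is highest for Mib1.

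The direction of the air_011 difference followed how long a stretch of genome the gene covers. Gene span, from first to last base with introns, was taken from RefSeq GRCr8 by symbol for 13018 of the genes tested (83.25%). Genes higher in air_011 had a median span of 71.4 kb, genes lower 11.5 kb, and all genes with a span 24.7 kb. With the genes put in 10 bins of equal size by span, the bin of the shortest genes had 2.0% higher and 17.8% lower in air_011. The bin of the longest genes had 26.5% higher and 1.84% lower. The median log2 difference was -0.12 in the bin of the shortest genes and 0.13 in that of the longest, with a Spearman correlation across genes of 0.43. It was -0.25 in air_022, -0.19 in air_045, -0.10 in air_090 and -0.20 in air_180, each against a mean that includes air_011. The correlations describe genes, which are not independent replicates, and each contrast shares libraries with the others.

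**Figure D3:**
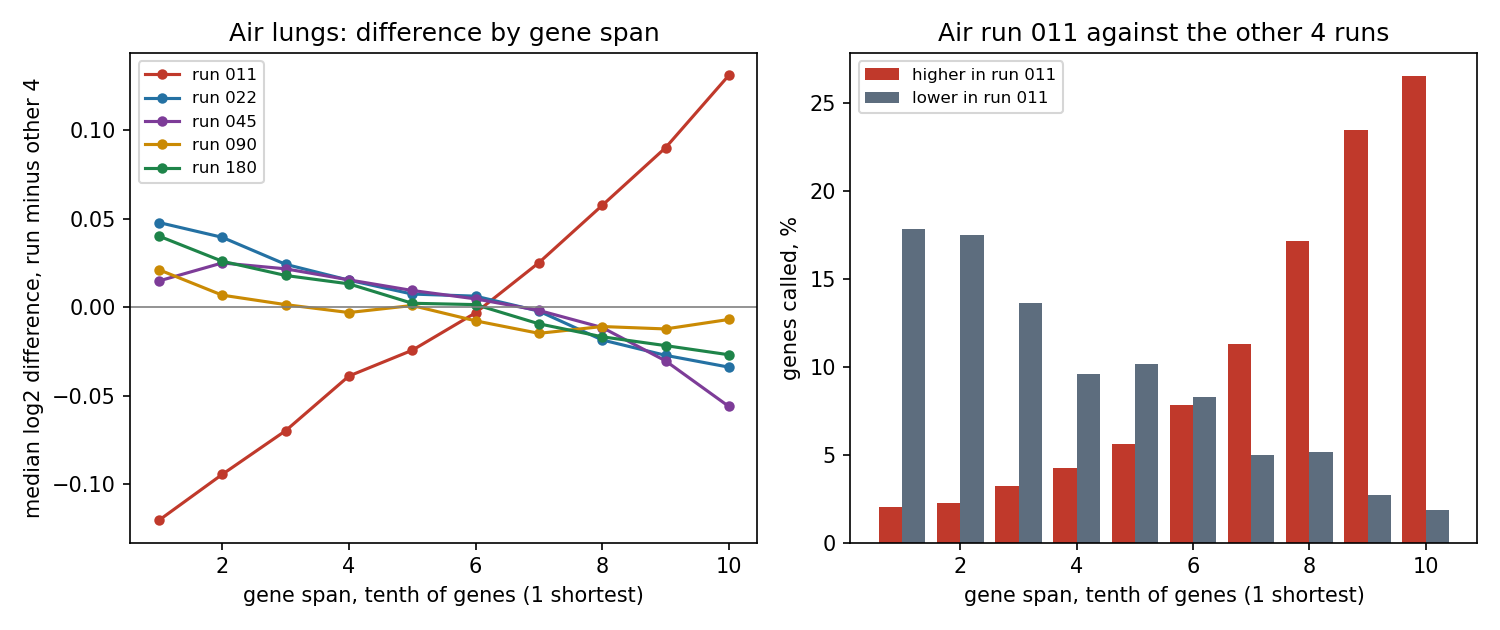
Left, median log2 difference of each air run from the other 4 by bin of gene span (10 bins of equal size, shortest first). Right, percent of genes called higher or lower in air_011 in the same bins. The run 011 line climbs from -0.12 to 0.13 while the other 4 lines stay between -0.06 and 0.05.

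The same measure was taken library by library, as the Spearman correlation across genes between a library's deviation in log2 CPM from the mean of the 5 air groups and the gene's span. The 6 air_011 lungs had 0.21 to 0.38, with a median of 0.30. The other 21 air lungs had -0.44 to 0.27, and 1 of them, replicate 5 of air_180 at 0.27, fell inside the air_011 range. The lowest was replicate 2 of air_022, and the rest of air_022 had -0.04 to 0.16. The medians over libraries were 0.065 in air_022, -0.065 in air_045, 0.024 in air_090 and -0.079 in air_180. The negative correlation of the air_022 contrast was thus not shared by most of its libraries. When a smooth trend with span was taken out of each library, 1744 genes were called in air_011 among the 13018 with a span, against 2601 without this step. Of the 1744, 1398 were also called in the fit of all 15637 genes. The 11 genes above all remained called, with Sppl2a at a log2 difference of 0.41 and Ddx6 at 0.52. Whether gene span stands for intron content, transcript length or RNA integrity was not tested.

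Nanotube lungs of the same runs are other rats and share no library with the air contrasts. The design gives each run 1 nanotube dose, so dose and run cannot be told apart among them. MWCNT_011 lungs (5 libraries) differed from the mean of the other 4 nanotube groups in 2469 higher genes (15.9%) and 2534 lower genes (16.3%) of 15577. Of the 2932 genes called in air_011 and tested in both, 2629 (89.67%) had the same sign in MWCNT_011 and 1344 (45.8%) were called in the same direction, while 28 were called in the opposite one. Over all genes tested in both, 70.6% had the same sign and 25.95% had a call in MWCNT_011 in the direction of their air_011 difference.

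The 11 genes with the smallest p were each called higher in MWCNT_011 too, by 0.25 to 0.63 on the log2 scale. Sppl2a had 83.4 to 100.7 CPM in MWCNT_011 and 63.5 to 79.0 CPM in the other 21 nanotube lungs. Ddx6 had 213 to 228 CPM in MWCNT_011 and 142 to 184 CPM in the others. The nanotube groups did not overlap for either gene.

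The span correlation of single libraries was 0.18 to 0.32 in the 5 MWCNT_011 lungs and -0.46 to 0.15 in the other 21 nanotube lungs. The mean was 0.25 ± 0.06 in MWCNT_011 and -0.10 ± 0.15 in the others (SD, n = 5 and 21). A two-sided exact permutation test of the difference of means gave p = 1.52e-05, the smallest that 65780 regroupings allow, and a gap in median deviation between genes over 100 kb and genes under 10 kb gave an exact p of 0.00626. With the nanotube libraries labelled as outliers put back (6 and 24 libraries), the exact p was 1.684e-06 for the correlation, the smallest possible. The exact p was 0.0591 for the gap between long and short genes. These permutation tests regrouped single libraries freely across runs, so their p-values describe the spread between rats. All MWCNT_011 rats came from the same run and dose, so the spread between whole runs was not tested.

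**Figure D4:**
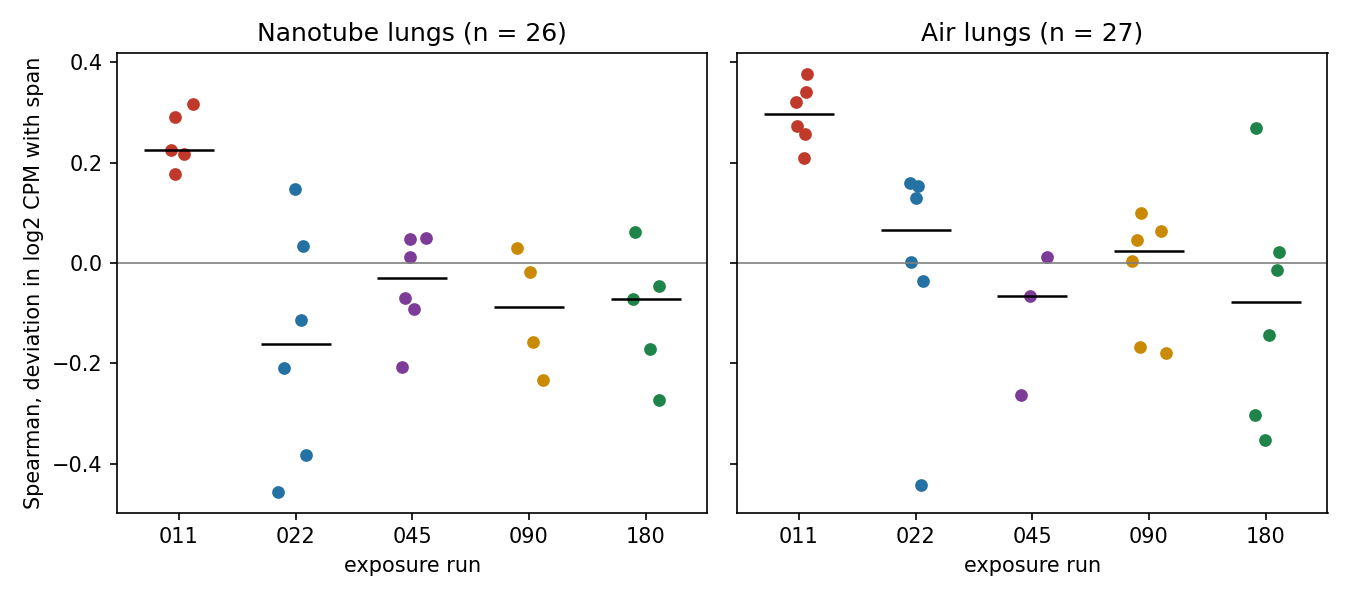
Spearman correlation across genes between each library's deviation in log2 CPM and gene span, for nanotube lungs (left) and air lungs (right) by run, with the median as a bar. In run 011, the nanotube lungs lie at 0.18 to 0.32 and the air lungs at 0.21 to 0.38.

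Among the genes with the largest range among runs were Setbp1, Klhl11, Mib1, Ston2, Pag1, Trove2 and Atp13a3. These 7 were higher in air_011 by 1.0 to 1.2 on the log2 scale, and each had its highest value in the same library, air_011 replicate 2. Each had its lowest log2 difference in air_045, at -1.15 to -0.77, where none was called (edgeR adjusted p 0.563 to 0.720). Air_045 holds 3 libraries and is part of the mean that air_011 is set against. Mib1, a ubiquitin ligase for Notch ligands, had 11.6, 17.3 and 33.0 CPM (lowest, median and highest) in air_011 and 3.18 to 15.4 CPM in the other 21 lungs. The groups overlapped, with 5 of the others inside the air_011 range, and Mib1 was called higher (edgeR adjusted p = 0.000378). Across the 27 air libraries the 21 pairs among the 7 genes had Spearman correlations of 0.692 to 0.956, as a description of genes that were picked for their range.

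In MWCNT_011, Mib1 had 6.06 to 25.5 CPM and the other 21 nanotube lungs 2.17 to 17.7 CPM, and its log2 difference was 0.35 (edgeR adjusted p = 0.446). Pag1 had the smallest edgeR adjusted p of the 7 there, 0.278, with a log2 difference of 0.33. Without air_011 replicate 2, 5 of the 7 kept an adjusted p under 0.05 for any difference. Trove2 and Atp13a3 did not, at 0.0903 and 0.0577, and Trove2 also lost the call without either of 2 other air_011 libraries.

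Among the lower genes of air_011, Pomp, which assembles the proteasome, separated fully. It had 2.1, 2.66 and 3.45 CPM in air_011 and 3.60, 5.03 and 9.42 CPM in the other 21 lungs, a log2 difference of -1.01 ± 0.17 (SE; edgeR adjusted p = 0.000439). It fell in MWCNT_011 as well, by 1.24 on the log2 scale (edgeR adjusted p = 0.00988). Cenpt, of the kinetochore, was lower in air_011 by 0.78 on the log2 scale (edgeR adjusted p = 0.00333), with 0.629 to 1.21 CPM there and 0.994 to 2.35 CPM in the others. Its any-difference p was 0.0541 without air_011 replicate 2, and in MWCNT_011 it fell by 1.45 (edgeR adjusted p = 9.18e-08). Rpl8, which encodes a ribosomal protein, had medians of 2.80 CPM in air_011, 2.98 CPM in air_022, 3.18 CPM in air_045, 10.7 CPM in air_090 and 10.8 CPM in air_180. Its log2 difference in air_011 was -1.39 (edgeR adjusted p = 0.0101), and air_022 and air_045 were near air_011 in median. Rpl38, of the same class, fell by 0.65 in air_011 (edgeR adjusted p = 0.0309). Both have near-identical copies in the genome, so their counts are uncertain.

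Bhmt, a methyltransferase most abundant in liver, was higher in air_011 by 1.52 ± 0.52 (SE, log2; edgeR adjusted p = 0.043). Its values were 1.27, 2.37 and 4.94 CPM in air_011 and 0, 0.694 and 7.80 CPM in the other 21 lungs, and the highest of all was air_180 replicate 5. Alb, highest in the same library, had 18.3, 33.4 and 70.3 CPM in air_011 and 1.69, 11.4 and 147.8 CPM in the others, and did not pass (edgeR adjusted p = 0.179). In MWCNT_011, Bhmt and Alb were both called higher, by 1.48 and 1.65 on the log2 scale (edgeR adjusted p = 0.044 and 0.0343). The median log2 difference of the 16 liver genes tested was 0.75 in air_011, beside -0.0044 for all genes. With all 27 libraries, 0 of the 16 were called in air_011 by edgeR (4 at an unadjusted p under 0.05), 0 by DESeq2 and 8 by limma voom with quality weights. By edgeR, 2 were called higher without air_022 replicate 2, beside 12.4% of all genes, and 10 were called higher when air_180 replicate 5 was left out as well. The last fit was added after the data were seen, and 13.2% of all genes were called higher in air_011 in it. The part of trace liver RNA in these differences was not tested.

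Outside run 011, Lyc2 had the clearest difference. It encodes a lysozyme, an enzyme that breaks bacterial cell walls, and its near-identical relatives make its counts uncertain. It had 11.9, 21.6 and 28.96 CPM in air_180, against 6.56 to 19.8 CPM in the other 21 lungs, and was higher by 1.01 ± 0.12 on the log2 scale (edgeR adjusted p = 2.04e-05). In air_022 it had 6.56, 7.58 and 8.07 CPM and was lower by 0.88 on the log2 scale (edgeR adjusted p = 0.00578). With all 30 air libraries its any-difference p was 0.112. In nanotube lungs it was also higher in MWCNT_180, by 0.78 on the log2 scale (edgeR adjusted p = 0.00138).

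Other genes raised in air_180 were few. Cebpb, a transcription factor of inflammation and differentiation, had 119, 136 and 168 CPM in air_180 and 59.1 to 125 CPM in the others, a log2 difference of 0.60 (edgeR adjusted p = 0.0207). Basp1, a membrane-cytoskeleton protein, had 10.6 to 14.0 CPM in air_180 and 6.59 to 11.7 CPM in the others, a log2 difference of 0.51 (edgeR adjusted p = 0.0184). Tmem238 had 11.3 to 15.9 CPM in air_180, a log2 difference of 0.84 (edgeR adjusted p = 0.0215), and its any-difference p was 0.0563 without air_180 replicate 3. The ranges of all 3 genes overlapped those of other runs.

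In air_090, S1pr3, a sphingosine 1-phosphate receptor, had 108, 119 and 136 CPM and was higher by 0.32 on the log2 scale (edgeR adjusted p = 0.0167). Atn1, a transcriptional corepressor, had 9.15, 14.6 and 18.9 CPM there and was higher by 0.83 (edgeR adjusted p = 0.00987). In air_045, Cbfb, the partner of RUNX transcription factors, had 71.9, 73.3 and 74.5 CPM, above the 53.2 to 69.4 CPM of all other lungs, and was higher by 0.28 (edgeR adjusted p = 0.044). Neither S1pr3 nor Atn1 was called in MWCNT_090, nor Cbfb in MWCNT_045. Rmrp, the RNA of a ribonuclease, differed among the groups (edgeR adjusted p = 0.0134) with no single run that passed. It had 1.04, 2.01 and 3.97 CPM in air_090 and 0.0884 to 3.88 CPM in the other 21 lungs.

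Of 40 gene lists, 12 had at least 1 member that differed among the air groups, and fibroblast and matrix genes had the most with all 27 libraries. In the list of fibroblast and matrix genes, 9 of 22 tested members differed among the 5 air groups, beside 5.82% of all genes. In air_011, 1 was higher and 5 were lower, beside 9.95% and 8.85% of all genes, with a list median of -0.02 on the log2 scale. Col1a1 had 581, 617 and 704 CPM in air_011 and 420, 499.5 and 663 CPM in the other 21 lungs, and was higher by 0.31 ± 0.05 (SE, log2; edgeR adjusted p = 0.000384). It was lower in air_180 by 0.28 on the log2 scale (edgeR adjusted p = 0.028), with 420, 454 and 497 CPM there.

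Other matrix genes moved the opposite way. Sparc, a collagen-binding glycoprotein, had 2456, 2659 and 2679 CPM in air_011 and 2703, 3091 and 3410 CPM in the other 21 lungs, and fell by 0.21 ± 0.04 (SE, log2; edgeR adjusted p = 0.000442). The ranges did not overlap. Eln, the gene of elastin, had 1028, 1156 and 1207 CPM in air_011 and 1144, 1314 and 1575 CPM in the others, and fell by 0.24 ± 0.05 (SE, log2; edgeR adjusted p = 0.00243). Col3a1 differed among the groups (edgeR adjusted p = 0.0128) without a single run that passed. The other called members were Dpt, Loxl1, Mfap5, Tcf21 and Tnc, listed because they passed. The summed level of the 24 members in the table was highest in air_090, at 12483, 13454 and 13923 CPM (lowest, median and highest), and the other groups had medians of 11862 to 12270 CPM. Without air_022 replicate 2, 11 of the members differed among the groups, beside 15.2% of all genes. In the same fit 13 of 27 ribosomal protein genes and 12 of 22 genes in the complex I and ATP synthase list differed.

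Ribosomal protein genes were lower in air_011: 9 of 27 tested fell and 0 rose, beside 8.85% of all genes lower, with a median of -0.17 on the log2 scale, beside a median of -0.0044 for all genes. Their summed level was 6627, 6881 and 6978 CPM in air_011 and 6990 to 11545 CPM in the other 21 lungs. With the span trend taken out of each library, 1 of the 27 fell, beside 6.26% of all genes with a span, and the median was -0.05. The list of complex I and ATP synthase genes, which serve ATP production in mitochondria, also holds genes of other respiratory complexes, such as Uqcrb. In it 5 of 22 genes tested were lower and 0 higher, beside the same 8.85% of all genes lower, with a median of -0.20. The summed level of the list was 1045 to 1130 CPM in air_011 and 1107 to 2002 CPM in the others. Ndufa6 and Ndufv2, both subunits of complex I, fell by 0.28 and 0.26 on the log2 scale. Among splicing genes, 5 of 18 were lower and 0 higher, with Clk1 and Srsf2 among them. These 2 lost the any-difference call without any 1 of 12 libraries for Clk1 and of 21 for Srsf2, at adjusted p up to 0.112 and 0.109 by edgeR. With the span trend taken out, 3 of the 16 genes with a span in the complex I and ATP synthase list were lower, the same number as before that step. Of 18 splicing genes, 1 was higher and 0 lower. Both ribosomal and mitochondrial sums were highest in air_022 replicate 2, and without that library 14 of the 27 and 14 of the 22 were lower in air_011, beside 11.3% of all genes. In that fit 6 of the 27 and 4 of the 22 were higher in air_180, beside 1.84% of all genes. Air_180 is part of the mean that air_011 is set against.

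**Figure D5:**
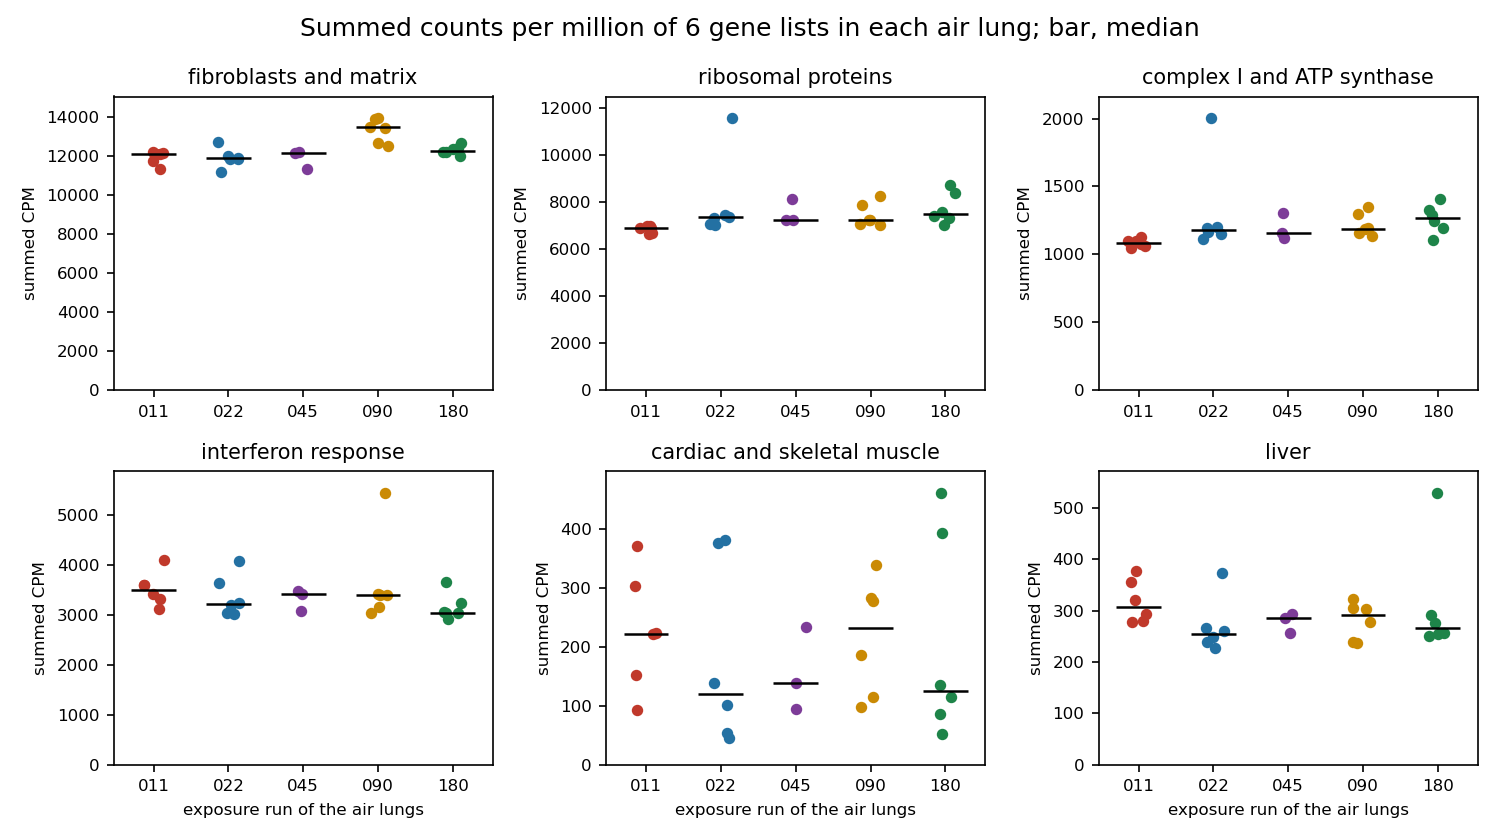
Summed CPM of 6 gene lists in each air lung (points) with the median of each run (bar), on linear axes from 0. Medians of the ribosomal list and of the complex I and ATP synthase list are lowest in run 011, and their highest values are in 1 lung of run 022. The muscle and liver sums vary from rat to rat within runs.

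Counts for epithelial and immune genes of the lung are to be read beside the 9.95% of all genes that were higher and the 8.85% that were lower in air_011. In air_011, 3 of 13 alveolar type 1 genes were higher and 1 lower, 1 of 14 alveolar type 2 genes was higher, 3 of 14 ciliated genes were higher, 3 of 46 interferon response genes were higher and 2 of 20 macrophage and monocyte genes were lower. Without air_022 replicate 2, 3 of the type 1 genes were higher and 3 lower, and 2 of the macrophage and monocyte genes were higher and 3 lower. In that fit 12.4% of all genes were higher and 11.3% lower. The type 1 genes that rose were Akap5, Clic5 and Rtkn2. Ager, a type 1 cell receptor, had 2149, 2181 and 2319 CPM in air_011 and 2227, 2506 and 3392 CPM in the other 21 lungs, and fell by 0.20 on the log2 scale (edgeR adjusted p = 0.0168). In MWCNT_011 its log2 difference was 0.02 (edgeR adjusted p = 0.827). With the span trend taken out of each library, Akap5 and Rtkn2 were still called higher in air_011, and Ager was not called. Ciliated genes Cfap43, Dnah11 and Hydin rose in air_011 by 0.37, 0.30 and 0.37, and Parp14, of the interferon list, by 0.48. With the span trend taken out of each library, Cfap43 was the only 1 of the 14 ciliated genes called in air_011. In MWCNT_011, Cfap43, Dnah11 and Hydin had log2 differences of -0.10, 0.08 and 0.0005 and were not called. Parp14 had 106.5, 121.5 and 149.7 CPM in air_011 and 42.8, 92.0 and 158.7 CPM in the other 21 lungs, and the ranges overlapped.

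Endothelial genes were mixed, with 3 of 18 higher and 4 lower in air_011, beside 9.95% of all genes higher and 8.85% lower. Without air_022 replicate 2, 3 were higher and 7 lower, beside 12.4% and 11.3% of all genes, and 8 differed among the groups in place of 3. Emcn, a glycoprotein of capillaries and veins, had 117, 131 and 136 CPM in air_011 and 133, 156.7 and 196 CPM in the other 21 lungs, and fell by 0.27 (edgeR adjusted p = 0.00367). It lost the any-difference call without any 1 of 8 libraries, all 6 of air_011 among them, at edgeR adjusted p up to 0.108. Myh11, the myosin of smooth muscle, had 268, 284 and 320 CPM in air_011 and 198, 227 and 285 CPM in the others, and rose by 0.32 ± 0.05 (SE, log2; edgeR adjusted p = 0.000195). Sox9, a transcription factor of cartilage and airway glands, rose by 0.62 (edgeR adjusted p = 0.00311), with an any-difference p of 0.0515 without air_011 replicate 2. The cartilage genes Col2a1, Acan and Matn1 were at 0 in 20, 25 and 25 of the 27 lungs.

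Blood genes gave 2 higher and 1 lower of 12 in air_011, beside 9.95% of all genes higher and 8.85% lower. Slc4a1, the anion exchanger of red cells, had 3.73, 6.55 and 10.3 CPM in air_011 and 2.16, 4.04 and 6.07 CPM in the others, and rose by 0.76 ± 0.16 (SE, log2; edgeR adjusted p = 0.00213). Hbb, a hemoglobin chain, had 1248 to 2297 CPM in air_011 and 1247 to 3750 CPM in the others and did not pass (edgeR adjusted p = 0.428).

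Counts for genes that follow the hour of the day or the handling of tissue are given beside the 9.95% of all genes higher and the 8.85% lower in air_011. Of 19 clock genes, 2 were higher and 1 lower in air_011: Clock and Rora rose by 0.18 and 0.21, and Ciart fell by 0.28 on the log2 scale. Clock and Rora each lost the any-difference call without either of 2 air_011 libraries, at adjusted p up to 0.0937 for Clock and 0.0631 for Rora by edgeR. Both also lost that call with the span trend taken out of each library, where Clock was still called in air_011 and Rora was not. Per1 (0.03), Dbp (-0.13) and Arntl (-0.10), which cycle strongly with time of day, had the log2 differences given beside them in air_011, at edgeR adjusted p-values of 0.965, 0.687 and 0.27. Fos, an immediate early gene, had 8.20, 10.6 and 11.4 CPM in air_011 and 7.07, 16.5 and 185 CPM in the others (edgeR adjusted p = 0.156), and the highest was air_022 replicate 6. Of 28 immediate early genes, 1 was higher and 3 were lower in air_011. The list median was -0.20 on the log2 scale, beside -0.0044 for all genes. With the span trend taken out of each library it was -0.10 over the 26 genes with a span. The summed level was 1983, 2226 and 2332 CPM in air_011 (lowest, median and highest). The other groups had medians of 2484 to 2597 CPM, and the ranges overlapped. Klf4 and Dusp1 fell by 0.29 and 0.55 on the log2 scale in air_011. Klf4 lost the any-difference call without either of 2 air_045 libraries, at edgeR adjusted p up to 0.0588.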

How the data were processed

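The deposited table holds the authors' raw read counts per gene symbol in 30045 rows. Per the submitters' processing notes the tools were bcl2fastq 2.19, Trimmomatic 0.35, HISAT2 2.1.0, Cufflinks, SAMtools 1.8 and HTSeq 0.11.2. The build is not given in the sources used here. No coordinates are printed. Per the labels' protocols, libraries were stranded mRNA with 12 PCR cycles. A spreadsheet date stood for the symbol in 27 rows.

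The 27 air libraries were fitted in R 4.3.3 with edgeR 4.0.16 (filterByExpr with a minimum count of 10, TMM scaling, robust quasi-likelihood F-test, two-sided, Benjamini-Hochberg over 15637 genes; the common biological coefficient of variation was 0.109). A run was compared with the mean of the other 4 air groups. Nanotube libraries had their own fit. Levels are CPM on TMM-scaled totals. SE is the log2 difference over the square root of F. P-values measure the spread between these rats. Alternatives used DESeq2 1.42.0 and limma 3.58.1. The span offset and the fit without both libraries that stood apart were added after seeing the data. The test was checked on counts simulated from the gene means and dispersions of these data, with no span trend and no library apart. In air_011, 55% of 40 genes changed 1.25-fold were called, and 97.5% of 40 genes changed 1.5-fold. In air_045, which holds 3 libraries, the shares were 50% and 70%.

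Named were the 12 smallest p-values and 12 largest ranges, up to 5 genes each way per run, up to 4 per list and fixed genes; symbols without a gene name were passed over, and some genes the rule names are not reported here. Members and lists were chosen with earlier results of these data known. No pair of libraries of a run came within sampling noise (chi-square over degrees of freedom at least 2.58).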

Additional observations from a re-analysis of the deposited data

Results flagged for a closer look

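A library lying apart from the other 5 of its group was seen in 49 of 420 groups of values examined. The cutoff passes about 5 in 100 for independent, normally distributed values. Many values here were correlated genes or sums that hold them, and many of the 49 came from the same library. The share seen therefore cannot be set against that rate. The number beside each is the gap to the nearest library divided by the whole range. No explanation was tested.

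Replicate 2 of air_022 was lowest in the span correlation (0.676) and on the first principal component (0.794). It was highest in the summed ribosomal protein (0.906), complex I and ATP synthase (0.902), club cell (0.679), ciliated cell (0.73), liver (0.731) and red blood cell (0.643) lists. It was also highest in Tmem238 (0.632), Ndufv2 (0.712), Ndufa6 (0.835), Ciart (0.851), Srsf2 (0.764), Scgb1a1 (0.645), Ager (0.824), Pecam1 (0.625), Hbb (0.639) and Alb (0.785). Ager had 3392 CPM there, against 2395 to 2570 CPM in the other 5.

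Replicate 6 of air_022 was highest in total counts (0.632), Fos (0.932), Egr1 (0.831), Rpl8 (0.886), Ston2 (0.693) and summed immediate early genes (0.678). Fos had 185 CPM there and 9.55 to 21.4 CPM in the other 5. Replicate 4 was lowest in summed endothelial genes (0.702).

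Replicate 5 of air_180 was highest in Alb (0.923), summed liver genes (0.852), Bhmt (0.813) and Vwf (0.709), with Alb at 147.8 CPM and 3.91 to 14.95 CPM in the rest. Replicate 6 was highest in summed type 2 cell (0.702), macrophage (0.711) and mesothelium (0.72) genes. Replicate 3 was highest in Tmem238 (0.63) and Rpl38 (0.705), and replicate 1 in Mx1 (0.633).

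Replicate 6 of air_090 was highest in Mx1 (0.899), Parp14 (0.822) and summed interferon genes (0.843), with Mx1, an antiviral protein, at 232 CPM and 56.6 to 74.4 CPM in the other 5. Replicate 5 was lowest in Klf4 (0.716) and Srsf2 (0.66), replicate 4 highest in Sftpc (0.676), and replicate 1 lowest in Tm9sf4 (0.656) and highest in Trove2 (0.665).

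Replicate 2 of air_011 was highest in Setbp1 (0.732) and Klhl11 (0.658). Replicate 4 was lowest in Nfix (0.648) and highest in Atn1 (0.698), replicate 6 highest in Srsf2 (0.807) and replicate 1 in Cyp1a1 (0.671).

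The run effect itself, tested as nanotube minus air in one edgeR fit, differed in 987 genes for run 011, 679 for run 180 and 1 for run 022. Of the genes named here and called in air, it differed at the edgeR adjusted p beside them for Sppl2a (0.0335), Rplp2 (0.0185) and Basp1 (0.0155) in run 180, and for Eln (0.0325), Tmcc2 (0.00706), Cfap43 (0.0137) and Cxcl14 (0.0147) in run 011. Eln had a log2 difference of 0.03 in MWCNT_011 and -0.24 in air_011. Each run has 1 nanotube dose, so dose and run cannot be told apart here.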

How the results depend on the processing

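Counts of genes that differed are given per setting, for the 5 groups together or for the named run against the other 4. Leaving out 1 library at a time gave 331 to 2371 for the 5 groups, 1638 to 3701 for air_011, 2 to 6 for air_022, 1 to 6 for air_045, 4 to 23 for air_090 and 6 to 396 for air_180. Without air_022 replicate 2 and air_180 replicate 5 together, the counts were 2929 for the 5 groups, 4143 for air_011, 7 for air_045, 23 for air_090 and 639 for air_180. With all 30 air libraries they were 175 for air_011, 2 for air_022, 2504 for air_045, 4 for air_090 and 3 for air_180. DESeq2 gave 1742 for the 5 groups, 11 for air_022, 10 for air_045, 27 for air_090 and 66 for air_180. Limma voom with quality weights gave 2915 for the 5 groups, 2 for air_022, 73 for air_045, 44 for air_090 and 560 for air_180. Without group air_011 the counts were 12 for the remaining groups, 4 for air_090 and 8 for air_180. Without group air_022 they were 2458, 14 for air_045 and 284 for air_180. Without group air_090 they were 1 for air_022 and 0 for air_045, and without group air_180, 0 for air_045. Genes with a span gave 1 for air_022, 0 for air_045, 4 for air_090 and 11 for air_180, and the span offset 1744 for air_011, 2 for air_022 and 0 for air_045. With no filter on low counts air_045 had 1. Libraries thinned to the smallest gave 2 for air_022 and 1 for air_045, and 53 libraries in 1 fit gave 16 for air_090. The cause was not tested.

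Only log2 differences of at least 1 were also counted for sign: of the same run in nanotube lungs, 011 shared it in 86.49% and 180 in 100%. With all 30 air libraries Tmcc2 and Klf4 changed direction, at edgeR adjusted p-values of 0.9915 and 0.995. Over the 204 named genes and all settings, 8222 values stayed on the same side of the threshold, 226 passed it and 268 no longer did. No paired analysis was possible because the replicate numbers were given in accession order and name no shared animal, cage or day.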

Other observations

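The 3 air_045 libraries that the labels mark as outliers entered only the fits named as holding all 30 air libraries. Replicate 3 had 5.191 M counts and a span correlation of -0.45. Replicate 5 had 12.14 M counts and a span correlation of -0.11, and its TMM scaling factor was 0.396. Replicate 6 had 18.54 M counts, a span correlation of 0.20 and a TMM scaling factor of 1.05.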
